A study of Mus musculus with 6 samples.

Results

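The 8 CC chemokine genes *Ccl2*, *Ccl3*, *Ccl4*, *Ccl5*, *Ccl6*, *Ccl7*, *Ccl9* and *Ccl12* were compared between sorted microglia of SOD1 G93A and WT mice at 90 days of age. Every probe set that the platform annotation gives to 1 of these symbols alone was used, which made 10 of 45037 probe sets, with a pair each for *Ccl6* and *Ccl9*. *Ccl3*, *Ccl4*, *Ccl5* and *Ccl9* rose in SOD1 G93A microglia, by between 1.46-fold and 5.08-fold, and none of the 8 genes fell. *Ccl12*, *Ccl2* and *Ccl6* had positive fold changes that did not pass the test, and *Ccl7* differed by less than the spread between arrays.

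SOD1 G93A mice carry many copies of a human *SOD1* transgene with a glycine to alanine change that causes familial amyotrophic lateral sclerosis, driven by the human *SOD1* promoter and so not restricted to microglia, here on the B6SJL background. The controls were WT littermates, and both groups were males. Lumbar cords were digested with trypsin and hyaluronidase and cleared of myelin, and live CD11b-positive cells were then sorted by flow cytometry. RNA was measured on 3 Affymetrix mouse whole-genome arrays per genotype, each from a pool of at least 6 mice, so p-values measure the spread between pools. CD11b is also carried by other myeloid cells, so the gate alone does not select microglia.

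CC chemokines are small secreted proteins named for a pair of adjacent cysteines, and they attract leukocytes through G protein-coupled receptors of the Ccr family. Microglia and macrophages release them after signals such as Toll-like receptor ligands, tumour necrosis factor and interleukin-1, in large part through NF-kB. Several ligands share a receptor and several receptors share a ligand: Ccl3, Ccl5, Ccl6, Ccl7 and Ccl9 bind Ccr1, and Ccl2, Ccl7 and Ccl12 bind Ccr2, the receptor that draws inflammatory monocytes.

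All 8 genes lie on mouse chromosome 11, in groups that are separated by other genes. In the RefSeq order *Ccl2*, *Ccl7* and *Ccl12* stand in one group, with *Ccl11*, *Ccl8* and *Ccl1*, and *Ccl5*, *Ccl9*, *Ccl6*, *Ccl3* and *Ccl4* stand in the other. Sequence of the 250 bases before the start was taken from the RefSeq promoter table of build GRCm38.p6, which has entries for 4 of the 8 genes. These 4 are printed as the promoters at hand, 2 of genes that rose and 2 of genes that did not pass the test. Capitals mark matches, on either strand, to the NF-kB motif (GGG, 2 free bases, then TTTCC), the AP-1 motif TGANTCA, the interferon motif (GAAA, 2 free bases, then GAAA), the PU.1 core GAGGAA and the TATA motif TATAAA.
Ccl3 (chr11:83649379-83649628, minus strand): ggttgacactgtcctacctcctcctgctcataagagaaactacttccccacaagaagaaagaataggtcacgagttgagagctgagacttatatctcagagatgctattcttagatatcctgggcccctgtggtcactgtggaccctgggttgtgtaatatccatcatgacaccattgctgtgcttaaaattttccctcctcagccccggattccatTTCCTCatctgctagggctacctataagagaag
Ccl9 (chr11:83578637-83578886, minus strand): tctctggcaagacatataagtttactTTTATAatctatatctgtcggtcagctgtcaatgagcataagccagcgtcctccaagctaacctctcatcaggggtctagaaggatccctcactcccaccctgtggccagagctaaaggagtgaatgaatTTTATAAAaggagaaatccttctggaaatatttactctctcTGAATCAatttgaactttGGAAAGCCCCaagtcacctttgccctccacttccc
Ccl6 (chr11:83593088-83593337, minus strand): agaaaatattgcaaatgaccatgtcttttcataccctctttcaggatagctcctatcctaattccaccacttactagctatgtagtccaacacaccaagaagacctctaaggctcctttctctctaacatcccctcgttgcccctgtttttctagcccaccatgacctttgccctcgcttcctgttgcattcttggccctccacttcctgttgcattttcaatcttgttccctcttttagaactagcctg
Ccl12 (chr11:82101595-82101844, plus strand): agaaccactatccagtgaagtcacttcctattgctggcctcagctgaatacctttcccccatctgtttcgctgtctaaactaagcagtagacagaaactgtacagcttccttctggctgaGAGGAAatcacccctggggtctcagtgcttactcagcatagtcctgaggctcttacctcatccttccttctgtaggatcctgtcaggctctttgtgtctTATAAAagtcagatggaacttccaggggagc

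*Ccl9* holds the NF-kB motif on the minus strand of the gene (GGAAAGCCCC, 35 bases before the start, counted from the most upstream base of the match) and the AP-1 motif as TGAATCA, 53 bases before it. It also holds 3 TATA matches, at 224, 94 and 92 bases, the last 2 overlapping on opposite strands. *Ccl3* holds the PU.1 core on the minus strand, as TTCCTC at 33 bases, and *Ccl12* holds the PU.1 core at 130 bases and TATAAA at 31 bases. The window of *Ccl6* has none of these letters. Of 32851 promoter windows of the same length, 1.41% hold the NF-kB motif, 6.75% the AP-1 motif, 2.98% the interferon motif, 23.3% the PU.1 core and 12.4% the TATA motif. A match is a description of the letters and not a measured binding site.

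Each probe set has a log2 signal on each of the 6 arrays, whose medians lay between 5.93 and 5.97, and a signal below 5 lies close to background. The microglial genes *Csf1r*, *Cx3cr1*, *P2ry12* and *Tmem119* had mean signals above 11 in both genotypes, and *Itgam*, which encodes CD11b, had 8.71 in SOD1 G93A and 8.73 in WT. Other microglial markers were dimmer, such as *Sall1* with 8.78 in SOD1 G93A and 9.61 in WT. The neutrophil genes *S100a8* (14.14 in SOD1 G93A and 14.49 in WT) and *Ngp* (13.82 and 14.28) were also bright. These levels therefore do not show how pure the sort was. The first principal component of the arrays (46.4% of the variance) separated the genotypes, and on the second (28.0%) both arrays numbered 1 stood away from the remaining 4. For *Gapdh* the difference between the 3′ and 5′ signals, larger where RNA copies are shorter, was 4.12 ± 0.59 (SD, n = 3) in SOD1 G93A and 4.89 ± 0.11 (SD, n = 3) in WT arrays (-0.77, p = 0.1 by a two-sided exact permutation test, the minimum for 3 against 3). For the CC chemokine genes, results that change without both arrays numbered 1 or with this *Gapdh* difference as a covariate are therefore also given. Of the genes in the lists below that passed, each by its brightest probe set, most lost their calls with the covariate. Only *Csf1*, *S100a4* (log2 fold change -1.34, adjusted p = 0.0481 from limma) and *Nefl* (-1.57, adjusted p = 0.0172) kept them. The lower genes between the chemokine groups lost theirs too. Leaving out both arrays numbered 1 is not reported for the lists.

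Across the 8 genes 5 of 10 probe sets were higher in SOD1 G93A and 0 were lower (limma, Benjamini-Hochberg over all 45037 probe sets), where 2.71% of all probe sets were higher and 1.93% lower. With an unadjusted p below 0.05 these were 8 (10.1% of all probe sets) and 0 (9.32%). In 8 of the 10 every SOD1 G93A array lay above every WT array, as it did in 13.4% of all probe sets. The median log2 fold change of the 8 genes was 0.75, against 0.022 over all genes, with each gene taken at its brightest probe set. In such bulk RNA more cells of a type and more RNA per cell cannot be told apart. The plot of signals by array shows each probe set on its own axis.

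**Figure D1:**
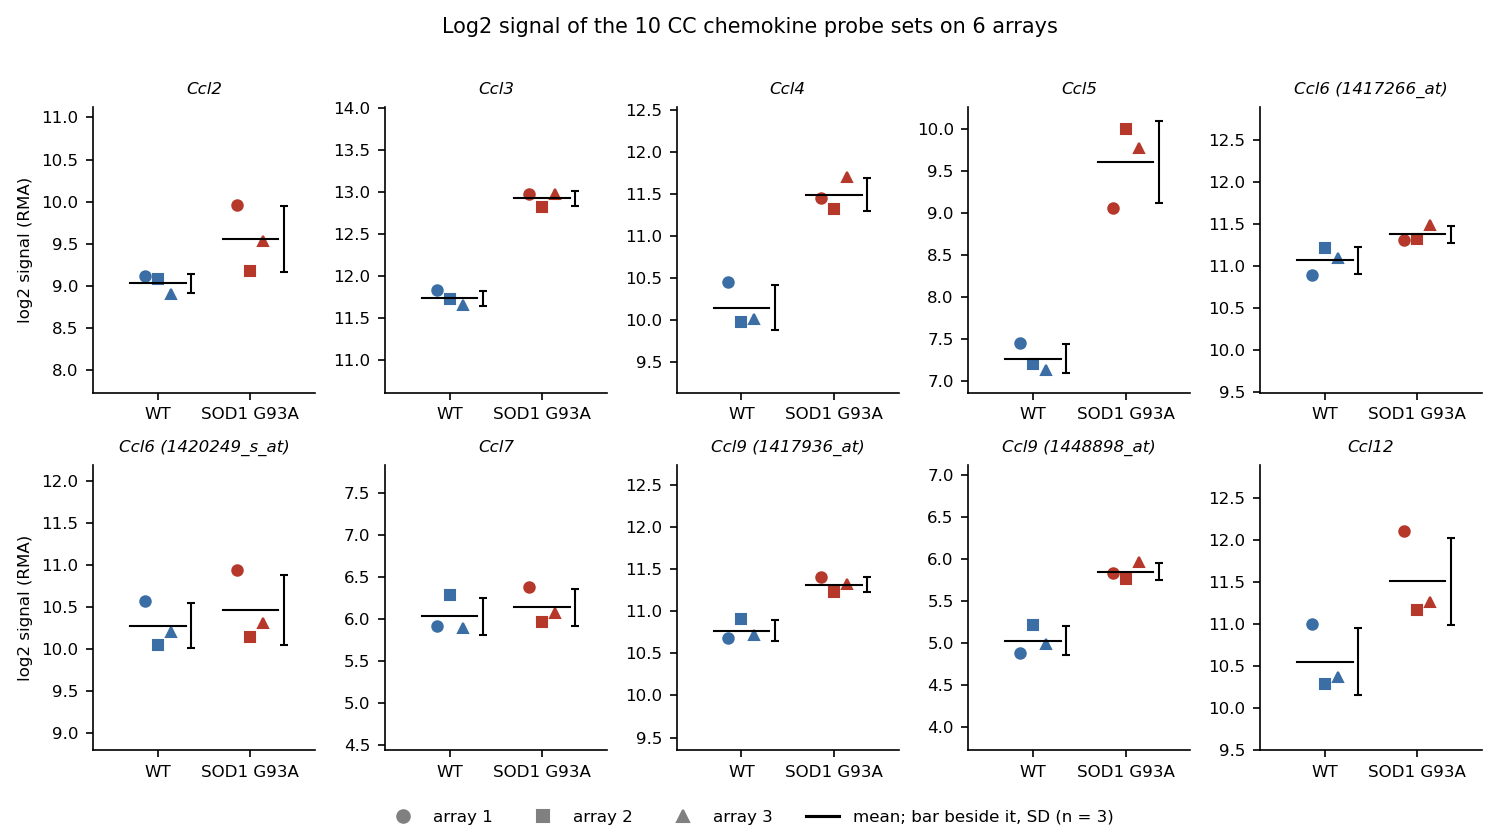
Log2 signal of each of the 10 CC chemokine probe sets (vertical axes, one panel each) in the 3 WT and 3 SOD1 G93A arrays, with marker shapes for the array number, a line for the mean and a bar for the SD. The groups lie apart in 8 panels and overlap for the s_at probe set of Ccl6 and for Ccl7.

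*Ccl3*, *Ccl4* and *Ccl5*, which encode attractants of monocytes and T cells, rose with the largest fold changes of the 8 genes, though with the *Gapdh* covariate that of *Ccl12* (1.47 on the log2 scale, not passing the test) was above those of *Ccl4* (1.22) and *Ccl3* (1.18). *Ccl5*, which encodes the chemokine known as RANTES, had log2 signals of 9.05, 9.99 and 9.77 in SOD1 G93A arrays 1, 2 and 3 and of 7.46, 7.20 and 7.13 in the WT arrays. The groups did not overlap, and the lowest SOD1 G93A array and the highest WT array were both those numbered 1. The rise was 5.08-fold (95% confidence interval 3.57 to 7.22, log2 fold change 2.34 with a standard error of 0.22, adjusted p = 0.00186 from limma), and *Ccl5* ranked 68 among all probe sets by p. Without both arrays numbered 1 its log2 fold change was 2.72 (adjusted p = 6.61e-06 from limma).

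*Ccl3*, which encodes a macrophage inflammatory protein that acts through Ccr1, read 12.98, 12.82 and 12.98 in SOD1 G93A and 11.83, 11.72 and 11.65 in WT arrays. The 3 arrays of each genotype lay close together and far from the other genotype. *Ccl3* rose 2.28-fold (95% confidence interval 1.93 to 2.70, log2 fold change 1.19 with a standard error of 0.11, adjusted p = 0.00152 from limma).

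*Ccl4*, which encodes a related macrophage inflammatory protein, read 11.46, 11.32 and 11.71 in SOD1 G93A and 10.46, 9.98 and 10.01 in WT arrays. WT array 1 was the highest of its group and still lay below every SOD1 G93A array. *Ccl4* rose 2.54-fold (95% confidence interval 1.97 to 3.27, log2 fold change 1.35 with a standard error of 0.16, adjusted p = 0.00442 from limma). Within-array differences between these genes were compared by an exact permutation test, which cannot go below p = 0.1 with 3 arrays against 3. The log2 fold change of *Ccl4* exceeded that of *Ccl3* by 0.16 (exact two-sided permutation test of the within-array difference, p = 0.4, adjusted p = 0.4 over 5 pairs of genes), and that of *Ccl5* exceeded that of *Ccl3* by 1.16 (exact permutation test, p = 0.1, the minimum, adjusted p = 0.167). The *Ccl5* minus *Ccl3* differences did not overlap, at -3.92, -2.83 and -3.21 in SOD1 G93A and -4.38, -4.53 and -4.53 in WT arrays.

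These 3 genes passed the test whichever single array was left out, with adjusted p up to 0.0146 for *Ccl3*, 0.0301 for *Ccl4* and 0.0173 for *Ccl5* from limma. With the *Gapdh* difference as a covariate *Ccl3* (log2 fold change 1.18, adjusted p = 0.0411 from limma) and *Ccl5* (2.04, adjusted p = 0.0486) passed and *Ccl4* did not (1.22, adjusted p = 0.0843). The methods' t-test left none of the 3 after Benjamini-Hochberg adjustment over all probe sets, where it called 0 probe sets in all.

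*Ccl5* is also a product of T and NK cells, and marker genes of these cells were 15 of 18 measured. Their summed level, as log2 of the summed signals, lay between 9.46 and 9.58 in SOD1 G93A and between 9.85 and 9.97 in WT arrays (exact two-sided permutation test, p = 0.1). *Cd3g*, *Cd8b1*, *Cd2*, *Gzma* and *Tbx21* had mean signals below 5 in both genotypes. Of these, *Cd3g* (log2 fold change 0.26) and *Cd8b1* (0.21) had every SOD1 G93A array above every WT array, as did 13.4% of all probe sets. In 3 markers of the list every SOD1 G93A array lay below every WT array. The share of all probe sets that lay below in this way was not computed, so this count has no reference. *Klrd1*, a receptor gene of NK cells, was the only marker of the list that passed and was lower (log2 fold change -1.79, adjusted p = 0.0204 from limma), and none was higher. Its call was lost without SOD1 G93A replicate 2 (0.0854) or 3 (0.0879) or WT replicate 3 (0.0565). Of all genes, each by its brightest probe set, 2.08% were lower and 3.53% higher. The part of T and NK cells in the rise of *Ccl5* was not tested.

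*Ccl9* and *Ccl6* encode closely related chemokines of myeloid cells that act through Ccr1 and have no single counterpart in humans. *Ccl9* passed the test by both of its probe sets. Probe set 1417936_at read 11.41, 11.23 and 11.32 in SOD1 G93A and 10.68, 10.91 and 10.72 in WT arrays, with no overlap (1.46-fold, 95% confidence interval 1.23 to 1.74, log2 fold change 0.55 with a standard error of 0.11, adjusted p = 0.0314 from limma). The dimmer probe set 1448898_at read 5.82, 5.75 and 5.96 in SOD1 G93A and 4.88, 5.21 and 4.98 in WT arrays, with no overlap (log2 fold change 0.82, adjusted p = 0.0106 from limma). Its WT mean of 5.02 is close to background, so the size of this change is uncertain.

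The call for *Ccl9* was close to the threshold. By probe set 1417936_at it was lost whichever array was left out, with adjusted p between 0.0605 and 0.113 from limma, and with the *Gapdh* difference as a covariate (adjusted p = 0.200). Without both arrays numbered 1 the call by this probe set was lost too (log2 fold change 0.46, adjusted p = 0.0638 from limma). By probe set 1448898_at it was lost without SOD1 G93A replicate 3 (adjusted p = 0.0549) or WT replicate 3 (adjusted p = 0.0537), and with the covariate (adjusted p = 0.150). The mean of both probe sets gave a log2 fold change of 0.69 (adjusted p = 0.00669 over genes from limma).

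*Ccl6* did not pass by either probe set. Probe set 1417266_at read 11.31, 11.32 and 11.49 in SOD1 G93A and 10.89, 11.21 and 11.09 in WT arrays, so the groups did not overlap, but the difference was small (log2 fold change 0.31, 95% confidence interval 0.037 to 0.58, adjusted p = 0.196 from limma). Probe set 1420249_s_at read 10.93, 10.14 and 10.31 in SOD1 G93A and 10.57, 10.05 and 10.20 in WT arrays, where array 1 was the highest of each genotype and the groups overlapped (log2 fold change 0.19, 95% confidence interval -0.30 to 0.68, adjusted p = 0.703 from limma). With the *Gapdh* covariate these log2 fold changes were 0.15 (adjusted p = 0.734 from limma) and 0.56 (adjusted p = 0.398). Without both arrays numbered 1 they were 0.26 (adjusted p = 0.305 from limma) and 0.099 (adjusted p = 0.749). The excess of the *Ccl9* fold change over that of *Ccl6* was 0.24 on the log2 scale (exact two-sided permutation test, p = 0.1, adjusted p = 0.167 over the 5 pairs).

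**Figure D2:**
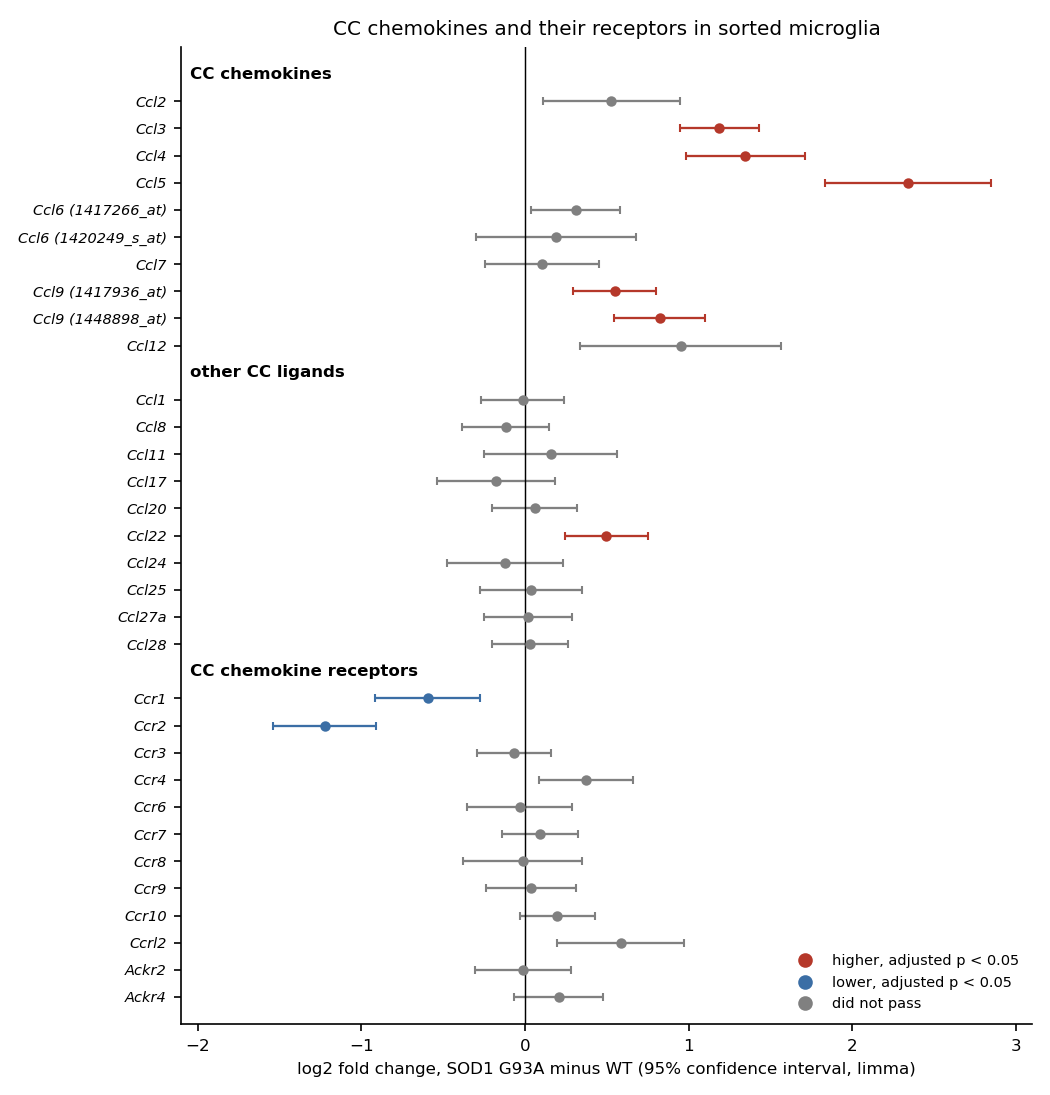
Log2 fold change of SOD1 G93A over WT (horizontal axis) with its 95% confidence interval from limma for the 10 probe sets of the 8 CC chemokine genes and for the brightest probe set of each other CC ligand and receptor. Red points (Ccl3, Ccl4, Ccl5, both probe sets of Ccl9, and Ccl22) were higher, blue points (Ccr1 and Ccr2) lower, and grey points did not pass.

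Of the Ccr2 ligands *Ccl2*, *Ccl7* and *Ccl12*, none passed the test. *Ccl12*, which encodes a mouse monocyte chemoattractant, read 12.11, 11.16 and 11.26 in SOD1 G93A and 11.01, 10.29 and 10.37 in WT arrays. Array 1 was by far the highest of each genotype, and every SOD1 G93A array still lay above every WT array. The log2 fold change of 0.95 (1.94-fold, 95% confidence interval 1.27 to 2.96, standard error 0.27) had an adjusted p of 0.0866 from limma. Without both arrays numbered 1 it was 0.88 and passed (adjusted p = 0.00254 from limma), as it did without WT replicate 1 alone (1.18, adjusted p = 0.0378) and with limma's array weights (0.87, adjusted p = 0.0409). With the *Gapdh* covariate it was 1.47 and did not pass (adjusted p = 0.114).

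*Ccl2*, which encodes monocyte chemoattractant protein, read 9.96, 9.18 and 9.53 in SOD1 G93A and 9.11, 9.07 and 8.90 in WT arrays. Here too array 1 was the highest of each genotype, and SOD1 G93A array 2 lay only just above WT array 1. The log2 fold change was 0.53 (1.44-fold, 95% confidence interval 1.08 to 1.93, SE 0.18, adjusted p = 0.152 from limma), and it ranged from 0.33 to 0.72 when each array was left out in turn. Without both arrays numbered 1 it was 0.37 (adjusted p = 0.187 from limma), and with the *Gapdh* covariate 0.71 (adjusted p = 0.270).

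*Ccl7*, which encodes a chemoattractant that binds several Ccr receptors, read 6.38, 5.96 and 6.07 in SOD1 G93A and 5.92, 6.29 and 5.89 in WT arrays, near the median signal of an array. The groups overlapped, and the log2 fold change of 0.11 (95% confidence interval -0.24 to 0.46, adjusted p = 0.773 from limma) turned to -0.072 without both arrays numbered 1 and was 0.21 with the *Gapdh* covariate. The interval bounds a change in *Ccl7* at these signals but does not show that there was none. *Ccl12* had a log2 fold change 0.42 above that of *Ccl2* (exact two-sided permutation test, p = 0.2, adjusted p = 0.25 over the 5 pairs), and *Ccl7* one below it, by -0.42 (exact two-sided permutation test, p = 0.1, adjusted p = 0.167).

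**Figure D3:**
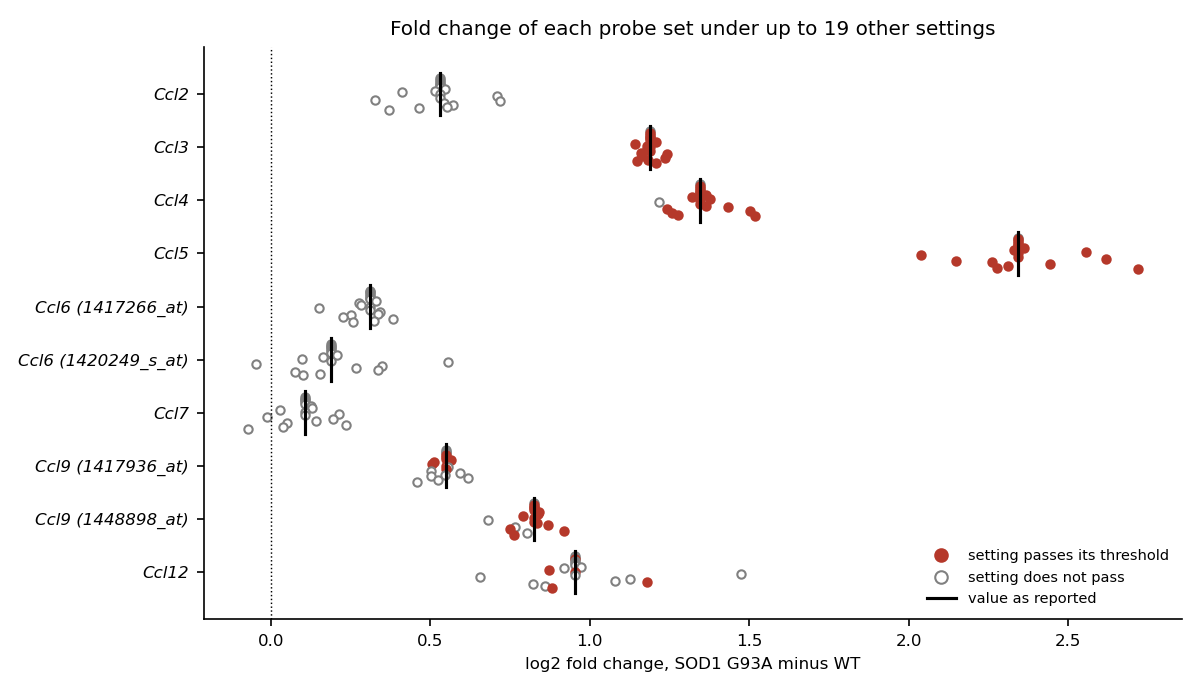
Log2 fold change of each of the 10 probe sets (horizontal axis) under up to 19 other settings (points, filled where the setting passes its threshold) beside the value as reported (line). Ccl3, Ccl4 and Ccl5 stay between 1.14 and 2.72 in every setting, and the points of Ccl7 and of the s_at probe set of Ccl6 lie on both sides of 0.

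By position on chromosome 11, the 6 measured genes from *Ccl2* to *Ccl1* had a median log2 fold change of 0.13, between -0.12 for *Ccl8* and 0.95 for *Ccl12*, and none passed. This median rests mostly on genes near or below the median signal of an array. These were *Ccl11* (mean signals 3.87 in SOD1 G93A and 3.71 in WT), *Ccl1* (5.32 and 5.34), *Ccl7* (6.14 and 6.03) and *Ccl8* (6.13 and 6.25). The 5 genes from *Ccl5* to *Ccl4* had a median of 1.19, between 0.31 for *Ccl6* and 2.34 for *Ccl5*, and 4 were higher. The brighter *Ccl12* (0.95) and *Ccl2* (0.53) of the first group lay within that range. Of all genes, each by its brightest probe set, 3.53% were higher and 2.08% lower. Between the groups RefSeq lists 52 genes, of which 25 were measured. Their median was -0.049, none was higher and *Slfn4* (-1.20), *AI662270* (-0.90) and *Rffl* (-0.70) were lower. *Slfn4* and *Rffl* lost their calls without replicate 2 or 3 of either genotype (adjusted p from 0.0584 to 0.0985 from limma), and *AI662270* on leaving out any array other than WT replicate 1 or 3 (0.0553 to 0.104). The difference between the groups of chemokine genes was not tested.

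**Figure D4:**
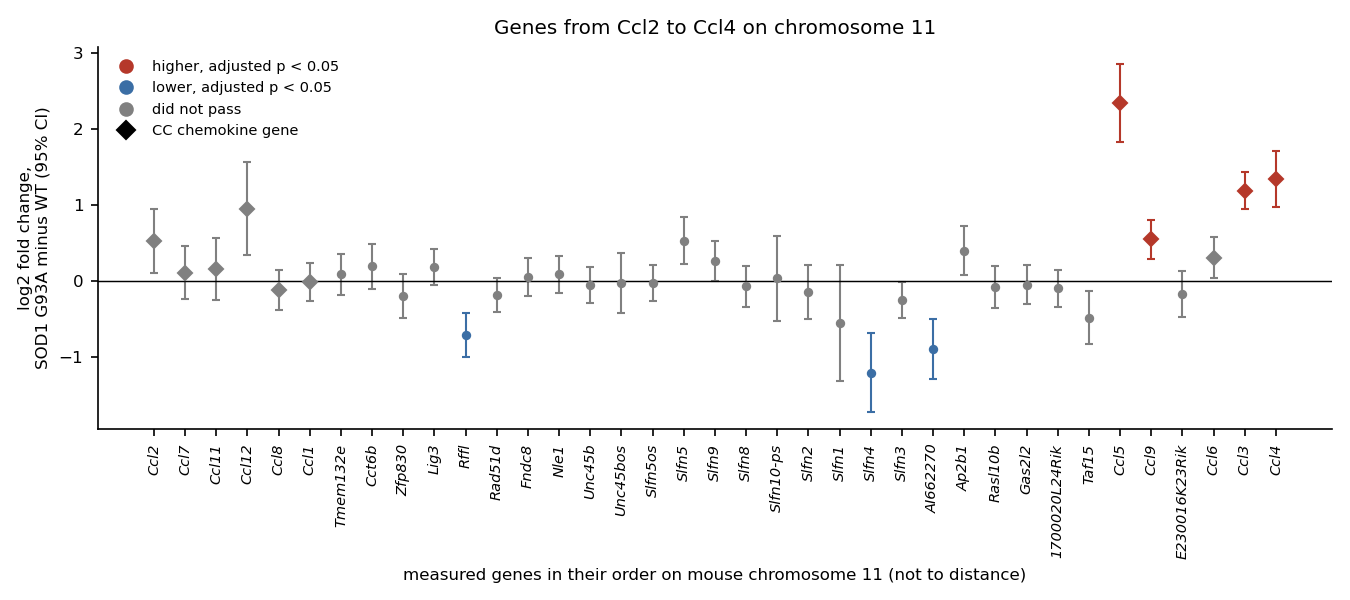
Log2 fold change with its 95% confidence interval (vertical axis) of the measured genes from Ccl2 to Ccl4, in their order on chromosome 11 and not to distance. The CC chemokine genes (diamonds) at the right end include 4 of 5 that were higher in SOD1 G93A, and those at the left end did not pass the test, among them Ccl12 at 0.95, above Ccl9 (0.55) and Ccl6 (0.31) of the right end.

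Of 15 other CC chemokine genes listed, 10 were measured and 1 was higher. *Ccl22*, which encodes an attractant of regulatory T cells through Ccr4, read 5.83, 5.96 and 6.00 in SOD1 G93A and 5.58, 5.38 and 5.35 in WT arrays (log2 fold change 0.50 with a standard error of 0.11, adjusted p = 0.0433 from limma). Its call was lost without SOD1 G93A replicate 2 (adjusted p = 0.134) or 3 (0.153) and without WT replicate 2 (0.134) or 3 (0.147). Only *Ccl24* of the 10 genes had mean signals above 7 (7.65 in SOD1 G93A and 7.77 in WT), and the WT mean of *Ccl22* was 5.43. The median log2 fold change of the 10 genes, which so rests mostly on dim genes, was 0.025, and none was lower. For these and the lists below each gene was counted by its brightest probe set, and of all genes counted so 3.53% were higher and 2.08% lower. *Ccl19*, *Ccl21a*, *Ccl21b*, *Ccl21c* and *Ccl26* were not analysed here.

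Among 12 measured receptor genes 0 were higher and 2 were lower, with a median log2 fold change of 0.012. *Ccr2*, by probe set 1421186_at, read 7.58, 8.02 and 7.66 in SOD1 G93A and 9.08, 8.98 and 8.86 in WT arrays. All SOD1 G93A arrays lay below all WT arrays, and *Ccr2* fell by 1.22 on the log2 scale (standard error 0.14, adjusted p = 0.00391 from limma), also when any single array was left out (adjusted p up to 0.0237). Its probe set 1421188_at was lower too (log2 fold change -1.10, adjusted p = 0.0242 from limma), and 1421187_at (-0.33, adjusted p = 0.121), with signals below 5, and 1460067_at (-0.20, adjusted p = 0.373) did not pass. The call of 1421188_at was lost without SOD1 G93A replicate 2 (adjusted p = 0.067) or 3 (0.0658) and without WT replicate 2 (0.0865) or 3 (0.1).

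*Ccr1*, by probe set 1419609_at, read 9.11, 8.65 and 8.91 in SOD1 G93A and 9.48, 9.62 and 9.36 in WT arrays (log2 fold change -0.59 with a standard error of 0.14, adjusted p = 0.0498 from limma). By probe set 1419610_at it read 7.82, 7.10 and 7.18 in SOD1 G93A and 8.57, 8.19 and 8.30 in WT arrays (-0.99 with a standard error of 0.20, adjusted p = 0.0282). The groups did not overlap by either, but each call was lost on leaving out any array other than SOD1 G93A replicate 1, with adjusted p between 0.0781 and 0.155 for the first and between 0.0511 and 0.11 for the second. Centring the arrays on their medians also ended the first (adjusted p = 0.0545). *Ccr3* was near background, at 3.61 in SOD1 G93A and 3.68 in WT (log2 fold change -0.067, adjusted p = 0.783 from limma). *Ccrl2*, an atypical receptor that binds chemerin and does not signal, had a log2 fold change of 0.58 that did not pass (adjusted p = 0.0935).

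*Ccr2* and *Ccr1* are also genes of blood monocytes and neutrophils, whose marker lists are given here. Of the monocyte list, which holds *Ccr2*, 11 of 14 genes were measured, 5 were lower and 0 higher, with a median log2 fold change of -0.94. Besides *Ccr2* the lower genes included *S100a6* (-1.11, adjusted p = 0.0207 from limma), *S100a4* (-1.09, adjusted p = 0.00833) and *Plac8* (-1.04, adjusted p = 0.0484). *S100a4* kept its call whichever array was left out, *S100a6* lost it without SOD1 G93A replicate 2 (0.0821) or WT replicate 2 (0.0766) or 3 (0.0894), and *Plac8* on leaving out any array other than WT replicate 1 (0.0822 to 0.166). The summed level of the list lay between 13.79 and 14.54 in SOD1 G93A and between 14.30 and 15.19 in WT arrays (exact two-sided permutation test, p = 0.3). Of the neutrophil list 12 of 14 were measured, 3 were lower and 0 higher, among them *Prtn3* (-1.41, adjusted p = 0.0291, lost on leaving out any array other than WT replicate 1, at 0.0595 to 0.1), with a median of -0.71 and summed levels of 15.74 to 16.26 and 16.08 to 16.79 (p = 0.3 by the same permutation test). The part of these cells in the fall of *Ccr2* and *Ccr1* was not tested.

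The lists of astrocyte, oligodendrocyte, neurone and border macrophage markers each held genes that were lower. The last 2 of these lists also held 1 gene each that was higher. Of 12 astrocyte markers 4 were lower and 0 higher (median log2 fold change -0.93), with summed levels of 10.23 to 10.87 in SOD1 G93A and 11.27 to 12.28 in WT arrays. Of 11 oligodendrocyte markers 2 were lower and 0 higher (median -0.36), with summed levels of 13.30 to 13.45 and 14.01 to 14.54. Of 12 neurone markers 3 were lower and 1 higher (median -0.22), at 9.03 to 9.24 and 9.82 to 9.99. Of 12 border macrophage markers 4 were lower and 1 higher (median -0.61), at 12.71 to 12.97 and 13.42 to 13.69. In these 4 lists the summed levels did not overlap (p = 0.1 each by the exact permutation test). Their part in the chemokine signals was not tested. *Mobp* of myelin (-2.49), *Nefl* of axons (-2.20) and the astrocyte gene *S100b* (-1.17) kept their calls whichever array was left out. These values are of the brightest probe set. Counting every probe set, 2 of 5 were lower for *Mobp*, 2 of 2 for *Nefl* and 1 of 2 for *S100b*, and the others did not pass. The glutamate transporter gene *Slc1a2* of astrocytes (-1.60, adjusted p = 0.0158 from limma) lost its call without SOD1 G93A replicate 2 (0.0667) or 3 (0.0634) or WT replicate 2 (0.0603). Of border macrophages, *Pf4* was lower (9.85 in SOD1 G93A and 10.85 in WT on average, adjusted p = 0.0165 from limma), with its call lost without replicate 2 or 3 of either genotype (0.0527 to 0.0702), as was *Maf* (-0.90, adjusted p = 0.0208), with its call lost without SOD1 G93A replicate 3 (0.0818) or WT replicate 2 (0.0771). The markers that were higher were *Ms4a7* of border macrophages (0.80, adjusted p = 0.0226) and the enolase gene *Eno2* of neurones (0.72, adjusted p = 0.0352). *Ms4a7* lost its call without replicate 2 or 3 of either genotype (0.0767 to 0.0944) and *Eno2* on leaving out any array other than SOD1 G93A replicate 1 (0.0608 to 0.117). Counting every probe set, 2 of 5 were lower for *Slc1a2* and 4 of 6 for *Maf*, and 1 of 2 was higher for *Ms4a7*.

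Of 12 endothelial and mural markers 1 was higher and 0 lower (median 0.14). Their summed levels overlapped, at 10.62 to 10.89 in SOD1 G93A and 10.75 to 10.88 in WT arrays. The higher gene was the growth factor receptor gene *Flt1* (0.87, adjusted p = 0.0149 from limma), with its call lost without replicate 2 or 3 of either genotype (0.0547 to 0.0654). Of 14 measured microglial markers 2 were higher and 1 lower (median -0.038), and their summed levels lay between 16.09 and 16.22 and between 16.09 and 16.19. *Fcrls*, which encodes an Fc receptor-like protein of microglia, rose by 1.07 (adjusted p = 0.00933 from limma), whichever array was left out. *Trem2*, which encodes a lipid receptor of microglia, rose by 1.28 (adjusted p = 0.0187), and lost its call without SOD1 G93A replicate 2 (0.067) or 3 (0.0515) or WT replicate 3 (0.0694). *Sall1*, which encodes a transcription factor of resting microglia, fell by 0.83 (adjusted p = 0.014), and lost its call without SOD1 G93A replicate 2 (0.0556) or 3 (0.0642) or WT replicate 2 (0.0603). Counting every probe set, 1 of 2 was higher for *Trem2* and 3 of 4 for *Flt1*, and 1 of 2 was lower for *Sall1*.

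Of 18 cytokine and receptor genes known to induce CC chemokines in myeloid cells, all were measured, 6 were higher and 0 lower, with a median log2 fold change of 0.16. *Tnf*, which encodes tumour necrosis factor, rose from 8.16 ± 0.14 (SD, n = 3) in WT to 9.42 ± 0.22 (SD, n = 3) in SOD1 G93A arrays, with no overlap (log2 fold change 1.26, adjusted p = 0.00356 from limma). *Tlr2*, which encodes a Toll-like receptor, rose by 1.56 (adjusted p = 0.00391) and *Csf1*, which encodes a growth factor of macrophages, by 1.55 (adjusted p = 0.00186). These 3 kept their calls whichever array was left out. *Ifnb1* rose by 0.78 (adjusted p = 0.0234), and its call was lost without SOD1 G93A replicate 2 (0.0883) or 3 (0.0969) and without WT replicate 2 (0.062) or 3 (0.0607). The interleukin-1 genes *Il1r1* (0.73, adjusted p = 0.0102) and *Il1a* (0.70, adjusted p = 0.0203) rose too, *Il1r1* losing its call without SOD1 G93A replicate 3 (0.0543) and *Il1a* without replicate 2 or 3 of either genotype (0.0507 to 0.0836). *Il1b* had a log2 fold change of 0.28 that did not pass (adjusted p = 0.587). Counting every probe set, 1 of 2 was higher for *Il1r1* and 3 of 4 for *Csf1*. With the *Gapdh* covariate *Csf1* passed (1.85, adjusted p = 0.0091), and *Tnf* (0.99, adjusted p = 0.0668), *Tlr2* (1.24, adjusted p = 0.0737) and *Ccr2* (-1.19, adjusted p = 0.0691) did not.

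Of the NF-kB factors and their feedback genes 13 of 14 were measured, 2 were higher and 0 lower, with a median log2 fold change of 0.15. *Relb*, which encodes an NF-kB subunit, rose by 0.69 (adjusted p = 0.0277 from limma) and *Nfkbib*, which encodes an inhibitor, by 0.62 (adjusted p = 0.0286). Neither call was kept throughout, since *Relb* lost it without replicate 2 or 3 of either genotype (adjusted p up to 0.0956) and *Nfkbib* whichever array was left out (adjusted p from 0.0548 to 0.0998). Of the 2 probe sets of *Nfkbib* 1 was higher.

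Of 21 genes that act below the receptors 19 were measured, 1 was higher and 1 lower, with a median log2 fold change of -0.088. Their summed levels did not overlap, at 15.01 to 15.08 in SOD1 G93A and 15.10 to 15.21 in WT arrays (exact two-sided permutation test, p = 0.1). The gene that was higher and the gene that was lower both encode regulators of G protein signalling. *Rgs18* fell by 1.63 on the log2 scale (adjusted p = 0.00451 from limma), whichever array was left out, and *Rgs1* rose by 0.93 (adjusted p = 0.0148), a call that was lost without SOD1 G93A replicate 3 (0.0702) or WT replicate 2 (0.0621) or 3 (0.0607). Of the 2 probe sets of *Rgs18* 1 was lower.

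Immediate early genes, which enzymatic dissociation is known to induce along with *Ccl3* and *Ccl4*, were examined since the cords had been digested before the sort. The list also held the heat shock genes *Hspa1a* (log2 fold change -0.42, adjusted p = 0.268 from limma) and *Hspa1b* (-0.62, adjusted p = 0.117). These 2 are not immediate early genes, and with mean signals from 12.44 to 13.69 they weigh in the summed level. All 22 genes of the list were measured, 3 were higher and 0 lower, with a median log2 fold change of 0.072. *Dusp2* rose by 1.05 (adjusted p = 0.00233 from limma), *Myc* by 0.84 (adjusted p = 0.0122) and *Atf3* by 0.80 (adjusted p = 0.0327). The call of *Dusp2* was kept whichever array was left out, *Myc* lost it without SOD1 G93A replicate 3 (0.0558) or WT replicate 3 (0.0535), and *Atf3* on leaving out any array other than SOD1 G93A replicate 1 (0.0615 to 0.115). The summed level of the list lay between 16.47 and 16.63 in SOD1 G93A and between 16.51 and 16.64 in WT arrays. The part of dissociation in the chemokine signals was not tested.

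The genes whose pattern over the 6 arrays lay nearest to a chemokine gene were found among the 7970 other genes with a mean signal of at least 7, by the root mean square difference of their log2 signals after each gene's mean was subtracted. For *Ccl5* they were *Ank* (0.142), *Cd22* (0.155) and *Cd72* (0.216), where the median gene differed by 1.20. Those nearest to *Ccl3* were *Pon3* (0.0880), *Naglu* (0.107) and *Slamf9* (0.109), against a median of 0.597, and those nearest to *Ccl4* were *Slamf9* (0.114), *Ephx1* (0.117) and *Fabp5* (0.130). For *Ccl12*, with its high arrays numbered 1, *Pvt1* (0.153), *Rcan1* (0.190) and *Msr1* (0.215) lay nearest, against a median of 0.610. *Ostc*, *Rpn1* and *Med17* were nearest to *Ccl9*, *Pola2*, *Ier2* and *Rps10* to *Ccl2*, *Ganab*, *Atp8a2* and *Heatr1* to *Ccl6*, and *Naaa*, *Asb6* and *Ddx10* to *Ccl7*. All these patterns rest on the same 6 arrays, so a shared genotype difference alone brings genes close.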

How the data were processed

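The authors' deposited table gives log2 signals, made by RMA in Partek (version not given) according to the submitters' notes, whereas the study's methods name Affymetrix MAS. Affymetrix control probe sets (64) were left out, and the remaining 45037 were analysed with limma 3.58.1 in R 4.3.3 (lmFit and eBayes, genotype only) at a Benjamini-Hochberg adjusted p under 0.05. The platform annotation gave 1 symbol to 34945 of them, several to 932 and none to 9160, and RefSeq held the Entrez identifier of 34741 of the first. The labels describe labelling from micrograms of total RNA, the methods double amplification of small samples. The 8 genes and 15 lists were chosen with earlier results of these data known. Named are the 8 genes, *Ccr1*, *Ccr2* and *Ccr3*, and genes of each list from the 4 with the largest absolute change that passed, not always all of them. *Il1a*, *Il1r1*, *Il1b*, *Ccrl2*, *Ccl8*, the label checks and the lower genes between the chemokine groups fall outside this rule and were chosen after their values were seen. The same holds for *Ccl1*, *Ccl11*, *Ccl24*, *S100a8*, *Ngp*, *Hspa1a*, *Hspa1b* and the dim T and NK cell markers. Alternatives changed the test, threshold, scaling, dim probe sets, array weights, covariates, probe set rule or arrays. The number of arrays limits the precision. No arrays held identical values. Scripts were tested on simulated data. Python 3.11.15 (pandas 2.3.3; numpy 2.4.6; matplotlib 3.10.9) served annotation and figures.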

Additional observations from a re-analysis of the deposited data

How the results depend on the processing

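The 5 probe sets and 4 genes that were higher became 0 and 0 under the methods' t-test with Benjamini-Hochberg adjustment (5 probe sets at an unadjusted p under 0.05) and 2 and 2 with the *Gapdh* covariate. Leaving out each array gave 3 to 5 probe sets and 3 to 5 genes, with 3 probe sets without SOD1 G93A replicate 3 or WT replicate 3. No setting called any of the 8 genes lower. The direction reversed for *Ccl6* by probe set 1420249_s_at (-0.049) and for *Ccl7* (-0.014) without SOD1 G93A replicate 1, and for *Ccl7* without both arrays numbered 1 (-0.072). Over the arrays left out in turn these fold changes ranged from -0.049 to 0.35 and from -0.014 to 0.23. The other fold changes kept their direction in every setting run. With the replicate number as a block 6 probe sets and 5 genes were higher, *Ccl12* being the addition (adjusted p = 0.00120 from limma). Deviations of same-numbered arrays correlated at 0.444, 0.240 and 0.0288, so the numbers were not taken to pair the arrays, and not every array correlated best with its own number. Over all probe sets the 2089 calls became 0 by the methods' t-test, 795 and 1081 at the methods' fold threshold with the unadjusted p of that test and of limma, 3549 with array weights, 4519 with the block, 129 with the covariate, 1315 without suffixed probe sets, 3796 without both arrays numbered 1, and 479 to 2195 with each array left out. Gene-level settings give no count of probe sets. A minimum mean signal of 7 drops *Ccl7* and *Ccl9* by probe set 1448898_at, and leaving out suffixed probe sets drops *Ccl6* by 1420249_s_at. The causes of these shifts were not tested.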
